A study of Homo sapiens with 6 samples.

Results

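The immunoproteasome and MHC class I presentation genes described here are 9 of the 58676 genes in a deposited RPKM table from a human hepatocellular carcinoma (HCC) cell line. They are PSMB8, PSMB9 and PSMB10, TAP1, TAP2 and TAPBP, and HLA-B, HLA-C and B2M, found by matching gene IDs to symbols. The genes of 7 members lie on chromosome 6, PSMB10 on chromosome 16 and B2M on chromosome 15. They were chosen with their values in these libraries known, so their differences between groups are described without a test. The control group is 3 libraries titled 238, a name the labels do not explain, and the knockdown group is 3 libraries titled sponge, with miR-19a named in the series title. A sponge is a transcript with binding sites that take up a microRNA. The title speaks of treated cells and the design text of a knockdown, the line is not named, and no label gives a clone, a sponge vector, a dose or a time. All cells were grown in DMEM with fetal bovine serum. Nothing states that replicates were separate cultures, so their spread may be technical.

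Class I molecules show peptides from inside the cell to CD8+ T cells. Proteasomes cut proteins into peptides, and interferon-gamma makes cells exchange the catalytic subunits PSMB6, PSMB7 and PSMB5 for the immune subunits PSMB9, PSMB10 and PSMB8. TAP1 and TAP2 together pump peptides into the endoplasmic reticulum, tapasin (TAPBP) holds the empty class I molecule beside them, and a heavy chain such as HLA-B or HLA-C leaves for the surface with beta-2 microglobulin (B2M). Many tumours hold this machinery at a low level.

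The mature miR-19 sequences are shown because the sponge was named for miR-19a, with the seed, bases 2 to 8, in capitals. Both come from RefSeq (GRCh38.p14). Only 1 locus was kept for each, MIR19A and MIR19B1, and any further loci of the same name were not looked at. These loci lie on the plus strand within MIR17HG, miR-19a-3p at chr13:91350939-91350961 and miR-19b-3p at chr13:91351245-91351267. Both microRNAs have the same seed, so a site for 1 of them is a site for the other.
hsa-miR-19a-3p: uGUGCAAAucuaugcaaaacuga
hsa-miR-19b-3p: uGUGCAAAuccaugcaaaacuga
The seed pairs with TTTGCAC. None of the 9 members held this site in its longest annotated 3' UTR, which ran from 53 bases in PSMB9 to 3491 bases in TAP2, against 2602 of 19132 genes (13.6%) with one. TAP2 and B2M each held 2 matches of 6 bases only. No match says only that these letters are not in this window. MIR17HG, the host transcript of the MIR19A and MIR19B1 loci, had values of 0.811, 0.441 and 1.24 RPKM among the controls. In the 2 knockdown libraries used it had 1.26 and 1.13 RPKM. The mature microRNA is not measured by this assay, and a sponge need not lower the host transcript, so these values do not check the labels.

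Promoters are shown for 5 of the 6 members whose knockdown values lay above every control value. TAP1 and PSMB9 come first because they are transcribed away from each other from 1 shared stretch. Each sequence is the 250 bases before the annotated start (RefSeq, GRCh38.p14), written along the gene. Capitals mark the interferon element, GAAANNGAA or GAANNGAAA, and the NF-kB consensus on either strand, with merged matches written as 1 run. The gamma-activated site TTCNNNGAA would also be in capitals and is not in these 5 stretches, and GC boxes (GGGCGG) are left in lower case.
TAP1, minus strand, chr6:32853705-32853954: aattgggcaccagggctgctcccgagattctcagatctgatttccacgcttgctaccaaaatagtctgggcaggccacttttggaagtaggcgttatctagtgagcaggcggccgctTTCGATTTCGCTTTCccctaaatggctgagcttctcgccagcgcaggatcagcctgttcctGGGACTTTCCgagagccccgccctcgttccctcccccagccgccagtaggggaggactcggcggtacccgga
PSMB9, plus strand, chr6:32853942-32854191: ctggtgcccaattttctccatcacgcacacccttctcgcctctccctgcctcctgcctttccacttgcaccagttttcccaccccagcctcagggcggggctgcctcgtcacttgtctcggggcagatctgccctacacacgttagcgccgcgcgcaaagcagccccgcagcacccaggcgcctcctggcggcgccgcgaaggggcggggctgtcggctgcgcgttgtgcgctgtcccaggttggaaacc
PSMB10, minus strand, chr16:67936851-67937100: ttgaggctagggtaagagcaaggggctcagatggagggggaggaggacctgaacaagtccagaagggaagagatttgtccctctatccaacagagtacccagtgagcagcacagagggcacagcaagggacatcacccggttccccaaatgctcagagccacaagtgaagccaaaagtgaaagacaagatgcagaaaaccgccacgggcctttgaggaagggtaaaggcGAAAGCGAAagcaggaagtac
TAPBP, minus strand, chr6:33314079-33314328: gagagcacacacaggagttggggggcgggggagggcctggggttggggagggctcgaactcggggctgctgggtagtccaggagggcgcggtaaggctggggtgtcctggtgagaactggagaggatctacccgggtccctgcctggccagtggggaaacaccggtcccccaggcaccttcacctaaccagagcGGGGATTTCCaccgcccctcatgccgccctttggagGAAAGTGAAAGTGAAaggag
B2M, plus strand, chr15:44711267-44711516: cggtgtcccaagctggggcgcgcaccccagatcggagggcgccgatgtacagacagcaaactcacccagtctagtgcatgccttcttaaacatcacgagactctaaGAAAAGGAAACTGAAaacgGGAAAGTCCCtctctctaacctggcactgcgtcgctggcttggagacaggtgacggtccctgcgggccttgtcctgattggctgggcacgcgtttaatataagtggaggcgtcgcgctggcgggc
The TAP1 start (position 32853704) and the PSMB9 start (position 32854192) lie 488 bases apart on chromosome 6, and their windows share 13 bases. TAP1 held the run TTCGATTTCGCTTTC from -133 to -119 and GGGACTTTCC from -72 to -63, counted from its own start. PSMB9's own window held neither motif, and held 2 GC boxes. Both of these TAP1 matches lie between the 2 starts, upstream of PSMB9 as well. They fall outside the PSMB9 window, which covers 250 of the 488 bases.

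Over windows of 250 bases before to 50 after a start, 8 of the 9 members had the interferon element in at least 1 window. The exception was PSMB9, whose window stops short of the run counted for TAP1. Of the 27305 genes with a RefSeq window, 17.3% held the element in at least 1. In TAPBP it was GAAAGTGAAAGTGAA, from -20 to -6, and in B2M it was GAAAAGGAAACTGAA, from -144 to -130. TAP2 carried GAAGCGAAAGCGAA from -63 to -50. HLA-B and HLA-C carried the same TTTCACTTC, from -155 to -147 and from -151 to -143, each after an NF-kB match. The NF-kB consensus was in 5 members, TAP1, TAPBP, HLA-B, HLA-C and B2M, against 7.09% of genes, and the gamma-activated site was in 2, PSMB8 and TAP1, against 9.38%. The GC box was in 6 members and in 48.3% of genes. PSMB8 and TAP1 have 2 windows each. Both gamma-activated sites were in the window of start 2, as was the only interferon element of PSMB8. A match is a description of the sequence, not a bound site.

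**Figure D1:**
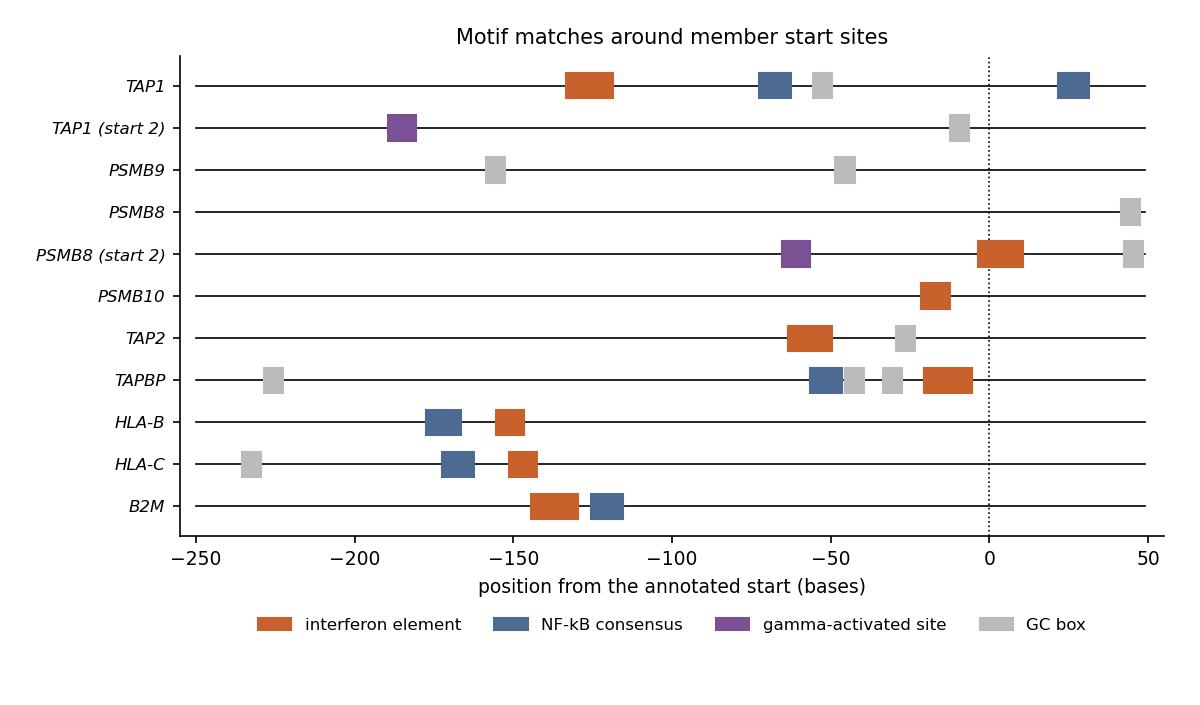
Motif matches in the windows of the 9 members, with the distance from the annotated start in bases on the x axis and 1 line per window; a dotted line marks the start. Interferon elements are orange, NF-kB matches blue, gamma-activated sites purple and GC boxes grey, and PSMB9 shows 2 GC boxes alone.

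Before the values, 1 column has to be set aside. In the knockdown replicate 2 column, 0.42% of the values were whole multiples of 1 read under the gene of their row, against 100% in each of the other 5, and its rank correlation with them was 0.0173 to 0.0191, against 0.822 to 0.887 among those 5. It was left out, which leaves 3 controls and 2 knockdown libraries with 1948940 to 19605312 reads assigned to genes, control replicate 2 being the shallowest. Hepatocyte markers summed to 2049 to 2306 RPKM among controls and 2196 to 2424 RPKM among knockdown libraries, with albumin and AFP high in all 5. The fit across 15408 genes with limma called 0 genes (0% called; lowest Benjamini-Hochberg adjusted p = 0.71), while an unadjusted p under 0.05 was reached by 585 genes with the knockdown higher (3.8%) and 392 with it lower (2.54%). With voom and sample weights 4 genes were called.

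PSMB9 stood farthest from the controls. Control replicates 1, 2 and 3 had 0.319, 0.501 and 0.365 RPKM, and knockdown replicates 1 and 3 had 2.94 and 4.37 RPKM. Both knockdown libraries lay above every control, at a mean of 3.66 ± 1.01 RPKM (SD, n = 2) against 0.395 ± 0.0946 RPKM (SD, n = 3), a ratio of 9.25. These values rest on 9, 3 and 22 control reads and 84 and 204 knockdown reads. With reads pooled by group the rate was 10.6 times as high, with an exact 95% interval of 7.43 to 15.6 that covers counting error only. The difference was 2.20 (SE 0.26) on the log2(RPKM + 0.5) scale, which understates the change of a gene this low.

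PSMB10, the immune subunit with trypsin-like activity, was at a higher level and differed less. Its values were 3.53, 3.32 and 3.28 RPKM in the controls and 4.82 and 6.14 RPKM in the knockdown libraries, so the groups did not overlap. The mean was 1.62 times as high, 5.48 ± 0.937 RPKM (SD, n = 2) against 3.38 ± 0.133 RPKM (SD, n = 3). Its log2 difference of 0.62 was 0.35 once trends of each library with exon length and GC content were removed. PSMB8, which has the chymotrypsin-like activity, was near the limit of detection at 0.218, 0 and 0.0851 RPKM in control and 0.144 and 0.483 RPKM in knockdown. Its groups overlapped, and only knockdown replicate 3, with 22 reads, stood above the rest. The 0 in control replicate 2 allows up to 0.514 RPKM (3 reads), which is above both knockdown values, so no difference from that library was detectable at this depth. PSMB8 reads pooled by group gave a rate ratio of 2.97 (1.42 to 6.65, counting error only), and 22 of the 26 knockdown reads came from replicate 3. That ratio was 1.20 without knockdown replicate 3, 4.58 without control replicate 1 and 1.97 without control replicate 3.

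Each immune subunit's transcript was then set against that of the constitutive subunit it replaces. PSMB9 was 0.181%, 0.325% and 0.309% of PSMB6 in the controls and 1.88% and 2.29% in the knockdown libraries, on the RPKM scale, which is per length. PSMB10 was 2.16%, 2.41% and 2.29% of PSMB7 in control and 3.33% and 3.44% in knockdown. PSMB8 was 0.15%, 0% and 0.0668% of PSMB5 in control and 0.112% and 0.316% in knockdown. The groups did not overlap for the first 2 ratios and did for PSMB8. The means of the ratios were 7.67 times as high for PSMB9, 1.48 times for PSMB10 and 2.96 times for PSMB8. The last was 1.55 without knockdown replicate 3 and 6.41 without control replicate 1. Constitutive transcripts thus outnumbered immune ones per length in all 5 libraries, and PSMB5, PSMB6 and PSMB7 themselves differed by 0.15, 0.23 and 0.12 on the log2 scale, with overlapping groups.

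**Figure D2:**
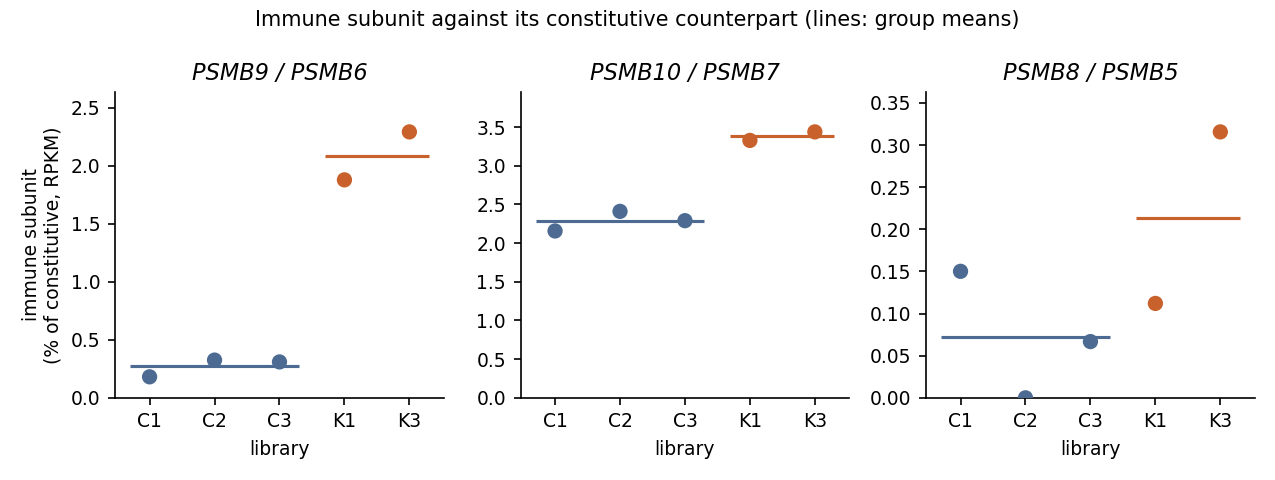
Each immune subunit as a percent of its constitutive counterpart (RPKM) by library, with C for control, K for knockdown and horizontal lines at the group means. PSMB9 moves from at most 0.325% of PSMB6 in control to at least 1.88% in knockdown, and the PSMB8 points overlap.

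In the transporter, TAP1 had separate groups and TAP2 did not. The 3 controls had 0.317, 0.427 and 0.138 RPKM of TAP1 and the knockdown libraries 1.03 and 0.698 RPKM, from 14, 4, 13, 46 and 51 reads. Both knockdown values were above the highest control, and the mean was 2.94 times as high. Pooled reads gave a rate ratio of 3.93 (2.60 to 6.09, counting error only), which was 2.45 without control replicate 3, the library with the lowest TAP1. TAP2, its partner in the heterodimer, was at 0.222, 0.161 and 0.343 RPKM in control and 0.303 and 0.257 RPKM in knockdown. Those groups overlapped, and the ratio of means was 1.16. The pooled rate ratio pointed the other way, at 0.93 (0.612 to 1.40), with 43 of the 58 control reads in replicate 3, and was 1.30 without that library. TAPBP, which bridges TAP and the heavy chain, was far more abundant, at 12.2, 12.1 and 14.3 RPKM in control and 20.2 and 25.3 RPKM in knockdown. It rests on 119 to 1941 reads, and its mean was 1.77 times as high, with no overlap and a log2 difference of 0.79 (SE 0.17).

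Among the class I molecules B2M had the most reads, 440 to 7933. B2M was at 55.3, 37.1 and 55.6 RPKM in control and 71.4 and 85.9 RPKM in knockdown, a mean of 78.6 ± 10.2 RPKM (SD, n = 2) against 49.3 ± 10.6 RPKM (SD, n = 3). The groups did not overlap, the ratio was 1.59, and the low control was the shallow replicate 2. HLA-C was at 0.261, 0.205 and 0.509 RPKM in control and 0.601 and 0.709 RPKM in knockdown. The groups were separate and the mean was 2.02 times as high. The pooled rate ratio was 1.61 (0.988 to 2.64, counting error only), with 25 of the 32 control reads in replicate 3, and 2.66 without that library. The log2 difference of 0.50 was 0.24 after quantile normalization, and with voom it was 0.76, or 1.06 with sample weights. HLA-B was at 0.0357, 0 and 0.0334 RPKM in control and 0.0353 and 0.151 RPKM in knockdown, which is 1, 0, 2, 1 and 7 reads. Its pooled ratio was 3.35 (0.803 to 19.6, counting error only) and 1.10 without knockdown replicate 3, and knockdown replicate 1 was at the level of the controls.

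**Figure D3:**
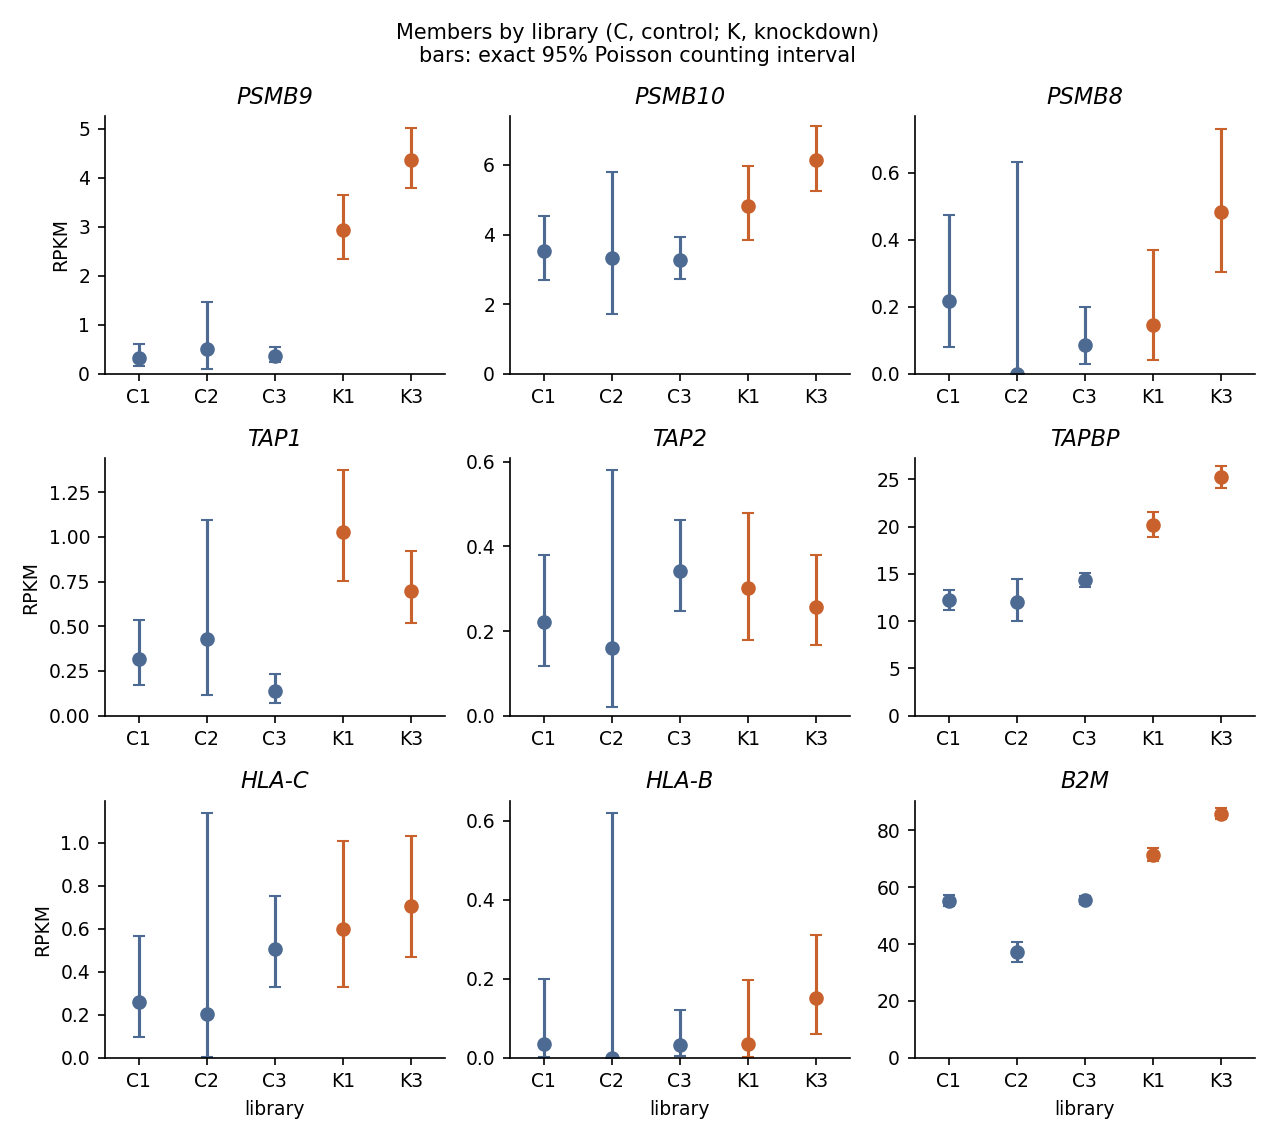
RPKM of each member by library (C, control; K, knockdown), with the exact 95% Poisson counting interval as bars and axes that start at 0. The 2 knockdown points lie above all 3 controls for PSMB9, PSMB10, TAP1, TAPBP, HLA-C and B2M, and the groups overlap for PSMB8, TAP2 and HLA-B.

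Counted over all 9 members, both knockdown libraries lay above every control for 6, none lay below, and 3 overlapped. Of the 15408 genes tested, 14.3% had both knockdown libraries above all controls and 13.6% below. The members were chosen on this contrast, so nothing is read from their count. Only 5 members passed the filter of 0.5 RPKM in at least 3 of the 5 libraries, PSMB9, PSMB10, TAPBP, HLA-C and B2M. PSMB9 and HLA-C passed only through their knockdown libraries and 1 control. Knockdown replicate 3 was above replicate 1 for 7 members, and the reverse held for TAP1 and TAP2. Fewer cells with a transcript and less transcript per cell cannot be told apart in bulk RNA.

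In order of control level, the ranges of B2M, TAPBP and PSMB10 were separate, and the next 6, from PSMB9 to HLA-B, were each within range of their neighbour. In knockdown the order of the top members was B2M, TAPBP, PSMB10, PSMB9, and PSMB9 was separate from PSMB10 above and from TAP1 below. TAP1 and HLA-C overlapped there, as did PSMB8 and TAP2.

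Read assignment limits several values, since whether counting used strand is not stated. Exon bases shared with other annotated genes made up 20.6% of PSMB8 (opposite-strand PSMB8-AS1), 34.8% of PSMB10 (same strand, AC040162.1), 32.3% of TAP2 (AL669918.1, listed at 0), 18.9% of HLA-B, 9.49% of TAP1, 5.66% of PSMB9 and 1.40% of HLA-C, and none of TAPBP or B2M. On GRCh38 the annotated PSMB9 span, 32844136 to 32859585 of chromosome 6, contains the whole of TAP1 (32845209 to 32853978) on the other strand. The HLA-B model (31269491 to 31357188) likewise takes in most of the HLA-C span (31268749 to 31272130). In exons, however, HLA-B shares 35 bases with HLA-C and 542 with AL671883.2 on the opposite strand. Reads of HLA-B and HLA-C, which are close relatives, can be split between them. Heavy-chain levels are therefore uncertain, the more so where a line's alleles differ from the reference. PSMB8-AS1 itself was at 0 to 0.263 RPKM.

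The nonclassical heavy chains outside the members were also read. HLA-E, which presents leader peptides to NK cells, was at 10.4, 12.4 and 10.2 RPKM against 13.2 and 18.3 RPKM, a log2 difference of 0.48 that limma did not call (adjusted p = 0.71). HLA-F was at most 0.223 RPKM, and HLA-G was listed at 0 throughout.

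Outside the 9 members no gene of the pathway lists was called by limma, and counts of separate groups below stand beside 14.3% of all tested genes with the knockdown above and 13.6% with it below. Of 8 activator and assembly genes, all tested, 6 were above 0 and 4 had separate groups with knockdown higher, among them PSME1 (0.48) and PSME2 (0.74), which cap the proteasome. The median of that list was 0.20, and 0.06 without knockdown replicate 3. Of 11 other 20S core subunits, 10 were above 0 and 1 had separate groups, with a median log2 difference of 0.12 (-0.05 without knockdown replicate 3). In the 6 tested genes of peptide loading and trimming in the ER the median was -0.05, with 3 above 0 and 3 below, and the 7 cytosolic and endosomal peptidases had a median of -0.07. In these last lists 1 tested gene each had separate groups with the knockdown lower, UGGT1, which checks glycoprotein folding, at -0.21, and TPP2, a cytosolic peptidase, at -0.57. CALR, a chaperone of the loading complex, had separate groups with the knockdown higher, by 0.06. Below the filter, TAPBPL (mean 0.153 against 0.364 RPKM) and ERAP2 (0.134 against 0.289 RPKM) of the ER list were also separate with the knockdown higher. All genes tested had a median of 0.00, with 7701 above 0 and 7707 below.

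Of 12 regulators of these genes 11 were tested, and 2 of those, IRF1 and RELA, had separate groups with the knockdown higher. Over all genes tested the share was 14.3%. NLRC5, below the filter, was also separate with the knockdown higher, and none of the 12 had separate groups with it lower. IRF1, which binds interferon elements, was at 3.18, 1.38 and 4.09 RPKM in control and 4.40 and 5.33 RPKM in knockdown, a log2 difference of 0.75. NLRC5, the class I transactivator, was low, at 0.202, 0.29 and 0.272 RPKM against 0.356 and 0.393 RPKM. SOCS1, a feedback inhibitor, belongs to the signalling list and was at 2.12, 1.14 and 0.966 RPKM against 2.52 and 3.15 RPKM, also separate. IFNAR2, a receptor chain of that same list, was separate the other way, at 1.04, 1.67 and 1.51 RPKM against 0.886 and 0.856 RPKM. These were the only tested genes of that list with separate groups, 1 higher and 1 lower. Below the filter, SOCS3 of that list was also separate with the knockdown higher, at 0.398, 0.188 and 0.485 RPKM against 1.02 and 0.505 RPKM. Over the 11 tested regulators the median log2 difference was 0.05 (-0.03 without knockdown replicate 1), with 7 above 0 and 4 below. Over the 9 tested receptor and signalling genes it was 0.02 (-0.07 without control replicate 2), with 5 above 0 and 4 below.

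Of 9 interferon genes, 8 were listed at 0 in all 5 libraries, and IFNL3 was at 0.0853 RPKM in knockdown replicate 3 alone. Of 12 interferon-gamma induced genes outside presentation, 4 were tested, 3 of them were above 0, and 2, GBP2 and CXCL10, had separate groups. The median of these 4 was 0.40, with 0.21 without control replicate 2 and 0.61 without control replicate 3. Counting genes below the filter, 5 of the 12 had separate groups with the knockdown higher and none lower. The other 3 were GBP4 and GBP5, at most 0.202 RPKM, and APOL1. Of the 32271 genes with a value above 0 in these libraries, 4034 had separate groups with the knockdown higher and 2515 with it lower. CXCL10, GBP4 and GBP5 were at 0 in control replicate 2, so they could not lie below all controls. APOL1 was at 0.186, 0.146 and 0.391 RPKM against 0.825 and 1.12 RPKM, from 34 control and 87 knockdown reads, a ratio of means of 4.04. CXCL9, IDO1 and IRF8 were listed at 0. The class II genes summed to 0.789 to 2.07 RPKM among controls and 1.60 to 1.79 RPKM among knockdown libraries, and 6 of 12 were at 0 everywhere. Of these 12, 3 had separate groups with the knockdown higher and none lower, all 3 below the filter. They were CIITA (22 control and 27 knockdown reads), HLA-DQA1 (16 and 34) and HLA-DMA (3 and 12, with 0 in control replicate 2).

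**Figure D4:**
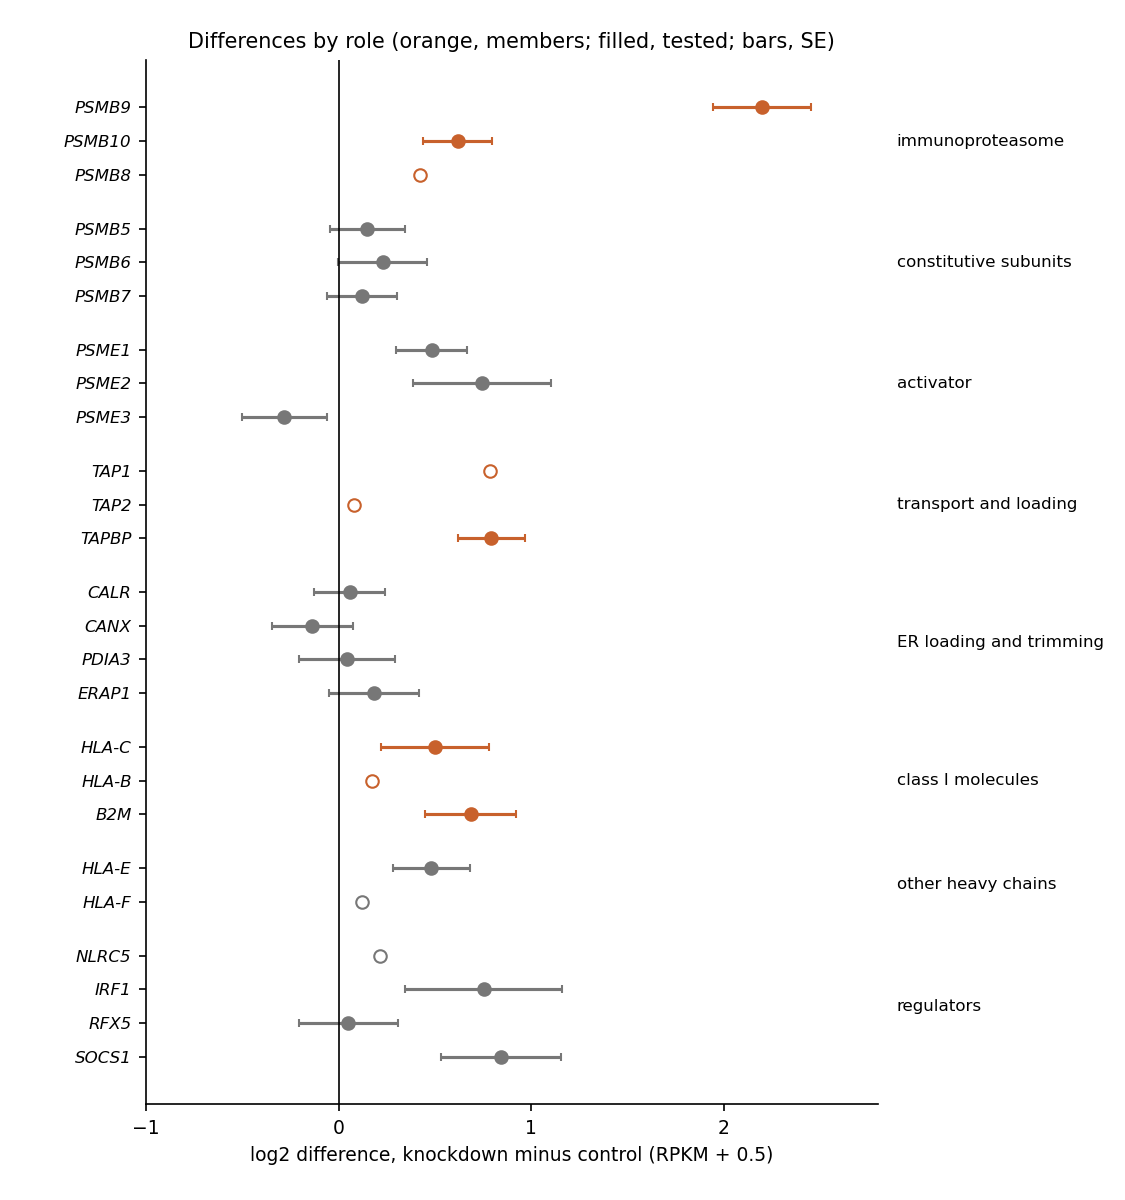
Log2 difference, knockdown minus control, of RPKM + 0.5 for members (orange) and named genes of the pathway (grey), with the SE as bars; open circles are genes below the filter, shown without an error. PSMB9 is at 2.20, and the constitutive subunits lie between 0.12 and 0.23.

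Leukocyte markers were checked because leukocytes hold much immunoproteasome. The 12 genes summed to 45.7 to 51.7 RPKM among controls and 47.0 to 53.4 RPKM among knockdown libraries, most of it CD14 and LYZ. PTPRC, the pan-leukocyte marker, was at most 0.071 RPKM. MS4A1 was at 0. CD3D had 3.07 to 4.46 RPKM among controls and 6.09 to 6.14 RPKM among knockdown libraries, whereas CD3E was at most 0.18 RPKM. CD3D thus had separate groups with the knockdown higher. So did ITGAM (2 control and 17 knockdown reads) and CD79A (0 and 3 reads), both below the filter. No leukocyte marker had separate groups with the knockdown lower. Fibroblast markers summed to 63.9 to 83.7 RPKM against 68.4 to 72.5 RPKM, most of it LUM, at 53.5 to 68.3 RPKM. Within that list COL1A1 (mean 1.31 against 2.25 RPKM) and COL1A2 (9.35 against 13.4 RPKM) had separate groups with the knockdown higher, and PDGFRA (0.829 against 0.391 RPKM) had them with the knockdown lower. Below the filter, COL3A1, at most 0.157 RPKM, was separate with the knockdown lower, and DCN, near 0, with it higher. Endothelial markers summed to 0.567 to 1.06 RPKM against 0.406 to 0.407 RPKM. PECAM1 (mean 0.579 against 0.341 RPKM), the only one tested, was separate with the knockdown lower. Below the filter, CLDN5 (6 control and 1 knockdown reads) was also separate with it lower, and CDH5 (0 and 4 reads) with it higher. Among hepatocyte genes APOB was lower in mean by 0.88 on the log2 scale and SERPINA1 and TF higher by 0.54 and 0.43, none of them called. The part of these differences in the members' values was not tested.

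Tested genes near PSMB9 in profile, by root mean square distance of mean-centred log2(RPKM + 0.5) over the 5 libraries, were AC016866.3 (0.32), RPL29P19 (0.39), DUOX2 (0.41) and AC026401.3 (0.44). Among the members TAPBP was at 0.71 (rank 149), PSMB10 at 0.78 (rank 371), B2M at 0.80 (rank 461) and HLA-C at 0.87 (rank 938). This distance is mostly a measure of the size of the group difference, and with 5 libraries no correlation is given. Within 100 kb of PSMB9 the annotation has 14 other genes, 3 of them members, and 8 at 0 in all 5 libraries. None of the 14 passed the filter.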

How the data were processed

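RNA of 6 libraries was measured by sequencing. The authors deposited RPKM values in 1 table, and HISAT2 and GRCh38 are named per the submitters' processing notes. For the counter, annotation and strand setting, nothing is given by the sources used here. The members and gene lists were chosen with earlier results of these data known. Symbols, exons and 3' UTRs came from GENCODE 29. In 5 libraries RPKM times exon length came in whole steps (tolerance 0.002 of a read). Each step was taken as 1 assigned read, and exact 95% Poisson and binomial intervals and a limit of 3 reads for a 0 were computed from these. The fit was limma 3.58.1 (R 4.3.3, mean-variance trend, two-sided) on log2(RPKM + 0.5) for genes that reached 0.5 RPKM in 3 or more of the 5 libraries, Benjamini-Hochberg adjusted over 15408 genes with 0.05 as threshold. The code was tested on simulated data. Named genes were the members, fixed pathway genes, other list genes at an unadjusted p under 0.05, tested genes within 100 kb of PSMB9, and the 5 genes nearest to PSMB9 in profile. Other list genes in the text were chosen after their values were seen. A few genes covered by this rule are not reported here, and list counts leave them out. Alternatives were other pseudocounts, filters, scalings and normalizations, voom, the replicate number as a block, all 6 columns and leaving out each library.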

Additional observations from a re-analysis of the deposited data

How the results depend on the processing

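The counts of called genes were 0 higher and 0 lower in the chosen fit, and stayed 0 except with the replicate block (33 higher, 7 lower) and voom with sample weights (3 higher, 1 lower). No gene of the pathway lists reported here, outside the members, was called under any alternative. Replicate numbers cannot be shown to pair the libraries: only numbers 1 and 3 are shared, and the deviations of same-numbered libraries correlated at -0.17 and 0.02.

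Log2 differences with pseudocount 0.1 were 1.06 in PSMB8, 2.91 in PSMB9, 1.34 in TAP1, 0.60 in HLA-B and 0.89 in HLA-C, and with pseudocount 1 PSMB9 was at 1.72. With voom PSMB9 was at 3.27 and HLA-C at 0.76, and with voom and sample weights at 3.35 and 1.06. Removal of the length and GC trends put PSMB10 at 0.35, and quantile normalization put HLA-C at 0.24. With all 6 columns, where 1 does not follow the gene IDs, PSMB8 was at 1.96, PSMB9 at 1.79, PSMB10 at -0.57, TAP1 at 0.31, TAP2 at 1.22, TAPBP at -1.05, HLA-C at 2.49 and B2M at -1.75. Leaving out each library, PSMB9 ran from 1.95 to 2.45, PSMB10 from 0.46 to 0.78 and HLA-B from 0.034 to 0.32, each lowest without knockdown replicate 3 and highest without knockdown replicate 1. The knockdown to control ratio of PSMB8 over PSMB5 ran from 1.55 without knockdown replicate 3 to 6.41 without control replicate 1. Outside the 6 columns 18 of the members' recomputed values moved by more than the spread between libraries, and 2, both of TAP2 (without control replicate 2, and with the replicate block), fell just below 0. The causes were not tested. Those 2 TAP2 values are 1 estimate, since under the block control replicate 2 has no knockdown library of its number and does not enter the difference.

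Low depth limits PSMB8, PSMB9, TAP1, TAP2, HLA-B and HLA-C, of which control replicate 2 holds 0 to 4 reads each. Pooled rate ratios without each library were computed after seeing the data.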
